A study of Mus musculus with 2 samples.

Results

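Claudins are small membrane proteins that span the membrane several times and join neighbouring epithelial or endothelial cells at tight junctions, where the set of claudins present fixes which ions and solutes can pass between the cells. They bind the scaffold proteins of the junction inside the cell and the claudins of the next cell outside it. In the embryonic heart, tight junctions are found in the endothelium and endocardium and in the epicardium, an epithelium that covers the heart and sheds cells into the wall. The claudin genes described here are Cldn1, Cldn3, Cldn4, Cldn5, Cldn6, Cldn7, Cldn10, Cldn12 and Cldn15. Their probes were found by gene symbol in the array's platform annotation. This gave 15 probes for the 9 genes, of 45281 probes for 19057 named genes in all. The genes themselves were chosen with earlier results of these data known.

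RNA was compared between lacZ-positive epicardial cells isolated from mouse hearts at E11.5 and all cells dissociated from such hearts. Both samples carried the Tcf21lacZ allele, in which a lacZ reporter marks cells that use Tcf21, a transcription factor gene of the epicardium and the cells that leave it, on a mixed background (C57BL/6, 129 and CD-1). The labels do not give the zygosity of the allele, the way in which lacZ-positive cells were isolated or the number of hearts pooled. Each sample was read on 1 Illumina bead array, so no difference has a replicate check and all are described by size alone.

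A probe's raw intensity is the mean brightness of its beads, and the error given beside it is the standard error over those beads, which does not cover animals, isolations or hybridisations. A probe was called detected where its detection p-value, which ranks it among 936 control probes, was under 0.01. The median raw intensity over all probes was 63.5 for lacZ-positive cells and 57.6 for total heart, and the median probe had 43 beads in either. Normalized values are on a log2 scale, and a log2 ratio gives lacZ-positive cells over total heart. Of 11 detected epicardial and mesothelial markers, 9 were higher in lacZ-positive cells by at least 2-fold and 0 lower, while 12 of 15 cardiomyocyte markers were at least 2-fold lower. Of 12 detected erythroid markers, 8 were at least 2-fold lower and 0 higher, with a median log2 ratio of -2.24. Their normalized intensities summed to 173309 in lacZ-positive cells, against 230190 in total heart. The 4 markers within 2-fold were globin genes, with log2 ratios of -0.41, -0.37, -0.07 and 0.25, and they made up most of both sums. Their raw values ran from 34557 to 49793 in lacZ-positive cells and from 38257 to 48115 in total heart. Whether signal still followed RNA amount at that brightness was not tested, so neither these ratios nor the sums show that globin RNA was kept. The part of the erythroid markers in the claudin values was not tested. Cardiomyocyte markers still gave signal in the isolated cells, where their normalized intensities summed to 82774, against 199719 in total heart. A gene detected in 1 sample only has a bound ("at least N-fold"), its value in that sample against the lowest value that counted as detected in the other, or the gene's own value there if higher.

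The claudins did not move as a family. Of the 9 genes, 8 were detected on at least 1 array, and of these 1 was at least 2-fold higher in lacZ-positive cells (Cldn1), 4 were at least 2-fold lower (Cldn4, Cldn5, Cldn6 and Cldn7) and 1 was within 2-fold (Cldn12). Cldn3 and Cldn15 had measured values less than 2-fold higher, but both were detected in lacZ-positive cells only, so their sizes have no upper limit. Among all 9713 detected genes, 3.82% were at least 2-fold higher and 6.44% were at least 2-fold lower. Among the 4741 of these whose mean log2 signal lay in the range spanned by the claudins, the shares were 4.32% and 8.12%. Since the members were chosen with earlier results known, their counts beside these shares are a description and not a test. The median log2 ratio of the 8 claudins was -0.62, or -0.65 with genes detected on 1 array set at their bounds, against 0.04 over all detected genes. None of these 8 chosen claudins had a measured log2 ratio between -1.59 and 0.35. The gap does not hold for all claudins on the array. The 3 others that were detected lay inside it, Cldn11 at -0.38, Cldn9 at -0.15 and Cldn34c1 at 0.04. Of these, Cldn9 lay just above the lowest detected value on both arrays, so its ratio says little about whether it was level. The raw values of all 15 probes are drawn in the plot of claudin intensities.

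**Figure D1:**
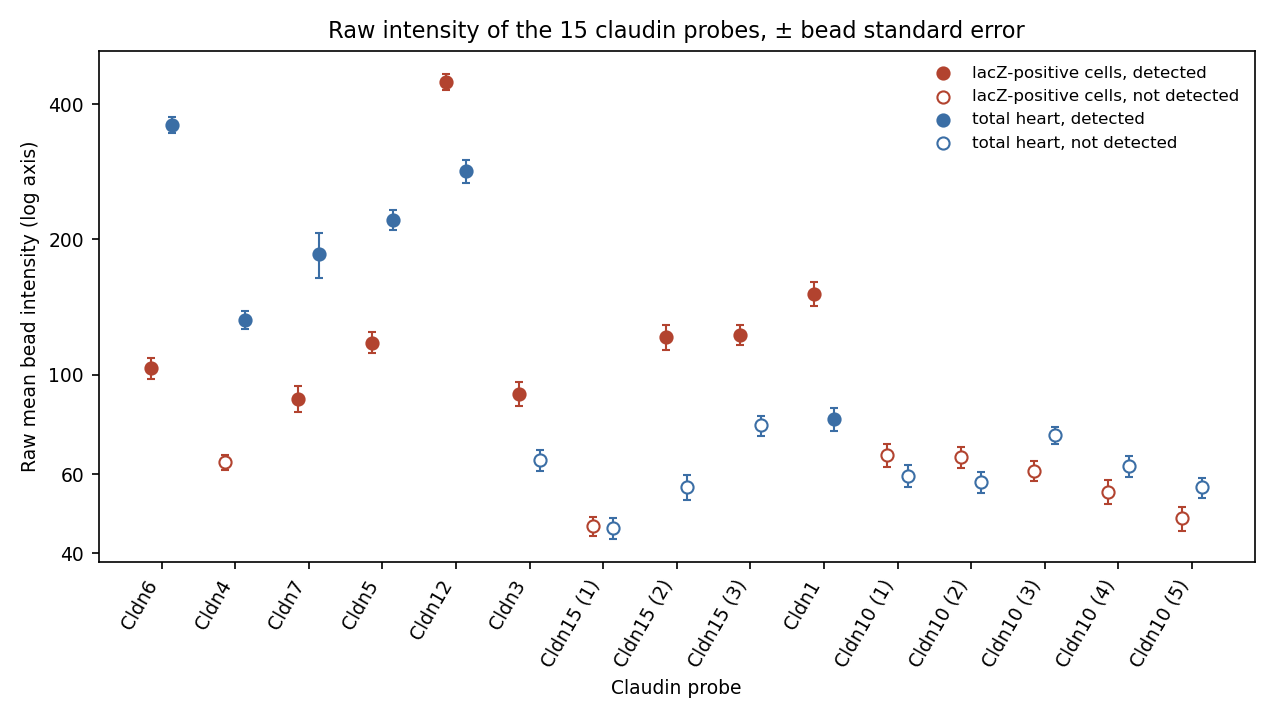
Raw mean bead intensity (log axis) of each claudin probe in lacZ-positive cells (red, left of each pair) and total heart (blue, right), with bars of 1 bead standard error. Filled points are detected and open points are not. The probes of Cldn6, Cldn4, Cldn7 and Cldn5 are brighter in total heart, those of Cldn12, Cldn3 and Cldn1 and 2 of the 3 of Cldn15 are brighter in lacZ-positive cells by more than their bead errors, and the 5 of Cldn10 are not detected in either.

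Cldn6, a claudin of early embryonic epithelia, had the lowest ratio of the family. Its probe (ILMN_2941790) read 103 ± 5.56 (bead SE) in lacZ-positive cells, against 359 ± 14.8 in total heart, and it was detected in both. The value was therefore higher in total heart by far more than the error over beads. After normalization Cldn6 was 6.29-fold lower in lacZ-positive cells (log2 ratio -2.65, bead SE 0.13), and only 37 of the 9713 detected genes had a lower ratio.

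Cldn7, which lies along the lateral membrane of many epithelia and binds the adhesion protein EpCAM, was 3.73-fold lower. Its probe (ILMN_2595477) read 88.4 ± 5.84 in lacZ-positive cells, against 186 ± 21.3 in total heart. The lacZ-positive value was just above background, with 8 of 936 control probes as bright, and the total heart value had the widest bead error of the family. The log2 ratio of Cldn7 was -1.90 with a bead SE of 0.26.

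Cldn4, a barrier claudin of gut, lung and kidney epithelium, was detected in total heart only. Its probe (ILMN_1223949) read 63.8 ± 2.33 in lacZ-positive cells, where 114 of 936 control probes were as bright, against 132 ± 6.14 in total heart. Cldn4 was thus not well above background in lacZ-positive cells and has a bound, at least 2.47-fold lower. Its measured log2 ratio was -2.01, with a bead SE of 0.11.

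Some other genes of endoderm-type epithelium were lower beside these 3 claudins. Of 21 such markers on the array, 12 were detected. Of these, 6 were at least 2-fold lower in lacZ-positive cells, 1 was higher and 5 were within 2-fold. Over all detected genes, 6.44% were at least 2-fold lower and 3.82% higher. Of the 12, 5 passed detection through total heart alone, and the median log2 ratio of -0.99 (-0.57 with bounds) became -0.24 with no filter on dim probes and -0.02 over the 7 genes detected on both arrays. The lower ones included Spint1, a protease inhibitor gene of epithelial surfaces, at 4.12-fold, and the signal gene Shh, at least 2.18-fold. Another was Cdh1, or E-cadherin, which joins epithelial cells below the tight junction, at least 1.45-fold lower. Of the 6 lower genes, Spint1 was the only one detected in lacZ-positive cells, 4 of the others had bounds under 2-fold, and the count of lower genes ran from 1 to 6 over other processing settings. The higher gene was Krt18, a keratin of simple epithelia, at 2.38-fold. Summed normalized intensity over the 12 genes was 2198 in lacZ-positive cells, against 2235 in total heart. Much of the lacZ-positive sum came from the 3 genes with log2 ratios above 0, the brightest of the 12 in that sample. They were Krt18 and, named after their values were seen, the keratin genes Krt19 (0.79) and Krt8 (0.45). The rest of the 12 were below 0, so the near-equal sums do not mean that each gene was level. The other 9 markers on the array were detected in neither sample, among them Epcam, the partner of Cldn7, named after its values were seen. The part of endoderm-derived cells in the claudin values was not tested. Nor can fewer cells of a type and less RNA per cell be told apart in samples of mixed cells.

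Cldn5, the main claudin of endothelium and of the blood-brain barrier, was the fourth lower gene. Its probe (ILMN_1241293) read 118 ± 6.36 in lacZ-positive cells, against 221 ± 11.1 in total heart, and it was detected in both. Cldn5 was 3.0-fold lower in lacZ-positive cells (log2 ratio -1.59, bead SE 0.14). The markers of endothelium and endocardium lay close to level beside it. Of 18 detected, 17 were within 2-fold and 1 was lower, Robo4, a guidance receptor gene of vessels, at 2.19-fold (past 2-fold in 5 of 9 other settings), and their median log2 ratio was -0.05, or 0.34 with no normalization between arrays. The next lowest was Pecam1, an adhesion gene of endothelium, at -0.49, and the highest was Tek, an angiopoietin receptor gene, at 0.50. Summed normalized intensity of these markers was 27714 in lacZ-positive cells, against 26503 in total heart. Cldn5 has also been located in mouse cardiomyocytes, at their lateral membranes. The cardiomyocyte markers had a median log2 ratio of -1.61 and 15 of 15 were below 0, and their part in the Cldn5 value was not tested.

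The sequence before the claudin start sites was searched for motifs of factors known for epithelial genes. RefSeq promoter windows of GRCm38.p6 were found for all 9 genes, with 13 start sites between them, and the 250 bases before each start were searched on both strands. The letters CAGGTG (or CACCTG on the other strand), the E-box that the Snail and Zeb repressors of epithelial genes can bind, occurred before 3 of the 13 starts, those of Cldn4, Cldn6 and the second start of Cldn7. They occurred in 17.2% of all 32851 windows of that length, so the claudin share was near this background. The 3 windows that hold the letters are shown with that of Cldn1, which does not, with CAGGTG or CACCTG in capitals.
Cldn4, chr5:134946935-134947184, minus strand: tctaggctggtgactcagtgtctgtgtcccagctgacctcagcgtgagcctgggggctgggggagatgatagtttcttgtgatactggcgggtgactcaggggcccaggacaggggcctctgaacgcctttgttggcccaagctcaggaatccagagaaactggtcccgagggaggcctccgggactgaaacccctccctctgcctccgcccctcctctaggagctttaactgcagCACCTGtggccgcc
Cldn6, chr17:23679115-23679364, plus strand: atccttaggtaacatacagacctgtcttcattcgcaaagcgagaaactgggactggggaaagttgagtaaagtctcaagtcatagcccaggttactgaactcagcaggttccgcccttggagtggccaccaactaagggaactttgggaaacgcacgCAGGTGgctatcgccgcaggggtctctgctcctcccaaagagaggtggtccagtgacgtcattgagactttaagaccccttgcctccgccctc
Cldn7, chr11:69965171-69965420, plus strand: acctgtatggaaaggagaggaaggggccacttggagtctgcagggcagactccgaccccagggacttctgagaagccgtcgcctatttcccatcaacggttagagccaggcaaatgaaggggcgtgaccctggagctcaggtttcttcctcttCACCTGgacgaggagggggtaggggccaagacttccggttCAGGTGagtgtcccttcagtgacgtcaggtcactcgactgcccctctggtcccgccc
Cldn1, chr16:26371840-26372089, minus strand: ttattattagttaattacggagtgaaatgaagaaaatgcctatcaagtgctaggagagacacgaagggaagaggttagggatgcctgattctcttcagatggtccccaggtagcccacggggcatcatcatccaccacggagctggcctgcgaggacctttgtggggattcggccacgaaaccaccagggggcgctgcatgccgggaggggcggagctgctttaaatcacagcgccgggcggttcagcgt
The match lies 14 bases before the start of Cldn4, 93 before that of Cldn6, and 97 and 57 before the second start of Cldn7, counted from its first base. Neither the first start of Cldn7 nor the window of Cldn5, Cldn3 or Cldn1 holds these letters. The letters GGGCGG (or CCGCCC), a GC box read by Sp factors, stood before 10 of the 13 starts and in all 9 genes, against 32.7% of all windows. The Cldn12 windows among the 10 overlap and share their match. The 10 windows held from 7 to 22 pairs of C followed by G, against a median of 6 over all genes. The shares were not adjusted for base content. The letters AACCNGTT (or AACNGGTT), where grainyhead-like factors bind, stood before 1 start, that of Cldn5, against 1.79% of all windows. TATAAA and the forkhead letters TGTTTAC stood before 0 of the 13. No matches to different motifs overlapped. A match describes letters only, and the arrays did not measure binding.

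Cldn1, a barrier claudin of the epidermis and of many other epithelia, was the single member past 2-fold in the upward direction. Its probe (ILMN_2870295) read 151 ± 9.22 in lacZ-positive cells, against 79.7 ± 4.79 in total heart. The lacZ-positive value was brighter than all control probes, while the total heart value was the lowest normalized value of any detected probe on that array, 5.65 on the log2 scale, with 9 of 936 control probes as bright. Cldn1 was 2.01-fold higher (log2 ratio 1.01, bead SE 0.20). The size therefore lay at the 2-fold line to within its bead error. Cldn1 stayed past 2-fold in 5 of 9 other processing settings, with log2 ratios from 0.54 to 1.32, all above 0. The settings of detection, filter and probe median left the ratio of its 1 probe unchanged. Of the others, only no normalization between arrays (1.32) kept it past 2-fold. The ratio was 0.96 with a median shift, 0.67 with no background correction, 0.68 with an offset of 50 and 0.54 with the authors' processed values. The last had an offset of 16 added before log2, which draws the ratio toward 0.

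Cldn15, whose protein forms a pore for cations in the gut, had 3 probes, all annotated to the same transcript record, and they did not give the same value. One probe (ILMN_2793817) read 123 ± 6.42 in lacZ-positive cells, against 77.1 ± 3.93 in total heart, and a second (ILMN_2674906) read 121 ± 7.77 in lacZ-positive cells, against 56.2 ± 3.50 in total heart. Both were detected in lacZ-positive cells only, with bounds of at least 1.51-fold and at least 1.49-fold higher. Their measured log2 ratios were 0.69 and 1.48. The third probe (ILMN_1245622) read 45.9 ± 2.15 in lacZ-positive cells, against 45.5 ± 2.41 in total heart, and was detected in neither. Counted by the brighter of its detected probes, as all genes were, Cldn15 had a measured size under 2-fold, and by the median of the detected probes its log2 ratio was 1.09.

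Cldn3, a barrier claudin often found with Cldn4, was detected in lacZ-positive cells only. Its probe (ILMN_2634167) read 90.6 ± 5.45 in lacZ-positive cells, against 64.6 ± 3.51 in total heart, where 50 of 936 control probes were as bright. The lacZ-positive value was below the lowest normalized value that counted as detected in total heart, so no fold is given. The measured log2 ratio was 0.54, with a bead SE of 0.20. In the RefSeq gene table Cldn3 and Cldn4 are next to each other on chromosome 5, and their measured ratios had opposite signs.

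Cldn12, an unusual claudin that lacks the tail by which most claudins bind junction scaffolds, was within 2-fold. Its probe (ILMN_1242248) read 448 ± 18.6 in lacZ-positive cells, against 283 ± 16.6 in total heart, and it was brighter than all control probes in both. After normalization Cldn12 was 1.28-fold higher in lacZ-positive cells (log2 ratio 0.35, bead SE 0.11), and 2285 detected genes had a higher ratio.

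Cldn10, made in splice forms that pass either cations or anions, was not detected by any of its 5 probes. These read between 47.8 and 66.1 in lacZ-positive cells, against a range of 56.1 to 73.3 in total heart. The nearest to detection (ILMN_2515816) read 61.1 ± 3.19 in lacZ-positive cells, against 73.3 ± 3.33 in total heart, where 21 of 936 control probes were as bright. Cldn10 was thus not well above background in either sample, and no fold is given.

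**Figure D2:**
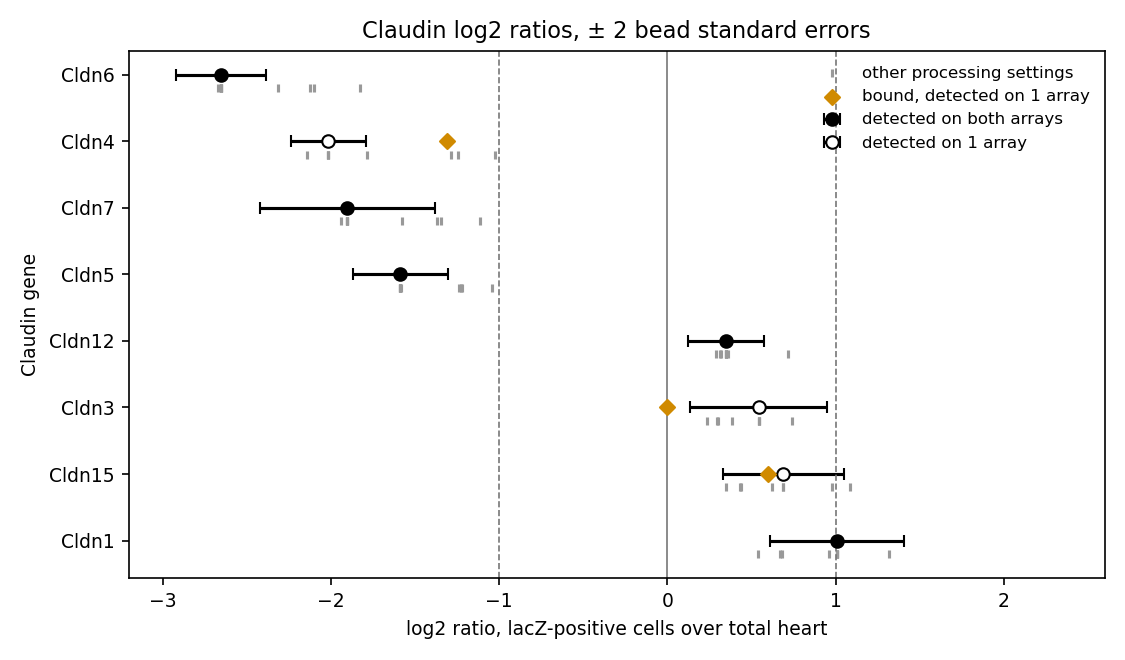
The log2 ratio of lacZ-positive cells over total heart (x axis) for the 8 detected claudin genes, with bars of 2 bead standard errors. Open circles are genes detected on 1 array, diamonds are their bounds, grey ticks are ratios under other processing settings and dashed lines mark 2-fold. All ticks of Cldn5, Cldn6 and Cldn7 lie past the 2-fold line, those of Cldn4 are measured values and not bounds, and those of Cldn1 lie on both sides of the line.

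Cldn5, Cldn6 and Cldn7 each have 1 probe, whose ratio the settings of detection, filter and probe median cannot change. They stayed past 2-fold under all 9 other settings, these included. The log2 ratios of Cldn6 then ran from -2.67 to -1.82, those of Cldn7 from -1.94 to -1.11 and those of Cldn5 from -1.59 to -1.04. The bound of Cldn4 ran from at least 1.63-fold to at least 3.38-fold lower over the 7 other settings for which one was computed, and it was past 2-fold in 3 of them. With no normalization between arrays the median of all genes was 0.42 in place of 0.04. Relative to that median, Cldn6 stood at -2.73, Cldn7 at -2.0, Cldn5 at -1.64 and Cldn1 at 0.90. Over the 5 claudins detected on both arrays, 3 were at least 2-fold lower and 1 higher. The shares were 5.15% and 3.31% of the 8770 genes detected on both arrays. The members were chosen with earlier results known, so this does not test whether claudins differ from other genes. The 3 other claudins detected were all within 2-fold.

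**Figure D3:**
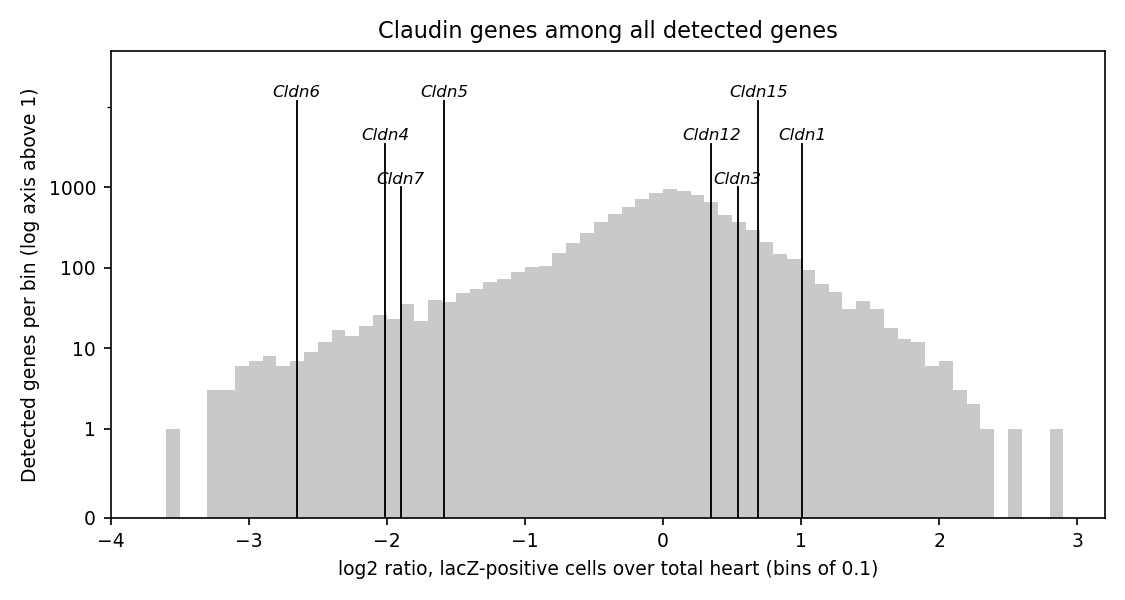
Number of detected genes (y axis, log scale above 1) in each 0.1-wide bin of the log2 ratio of lacZ-positive cells over total heart (x axis), for all 9713 detected genes, with a line at each detected claudin. Cldn6, Cldn4, Cldn7 and Cldn5 stand in the low tail, and Cldn12, Cldn3, Cldn15 and Cldn1 to the right of 0.

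The array named 15 further claudin genes, of which 3 were detected, Cldn9, Cldn11 and Cldn34c1, all in both samples and all within 2-fold. Cldn11, the claudin of myelin and of the testis barrier, read 499 in lacZ-positive cells, against 490 in total heart, with a log2 ratio of -0.38 that became 0.02 with no normalization between arrays. Cldn9, which the RefSeq table places next to Cldn6 on chromosome 17, read 88.1 in lacZ-positive cells, against 80.7 in total heart. Its log2 ratio of -0.15, with a bead SE of 0.18, became 0.11 with no normalization between arrays. Cldn6 had -2.65 and -2.31 under the same settings. The normalized values of Cldn9 were 5.53 in lacZ-positive cells and 5.68 in total heart, where the lowest detected values were 5.50 and 5.65. A probe that close to background in both samples has a ratio near 0 whatever its RNA did, so the contrast with Cldn6 is limited. Cldn34c1 stood at 0.04. Of the neighbours of Cldn7 on chromosome 11, Slc2a4, the insulin-responsive glucose transporter gene of muscle and fat, was 2.26-fold lower and Elp5 stood at 0.05. The neighbours Septin5 and Cdc45 of Cldn5 stood at 0.05 and -0.20. Septin5 was likewise at the lowest detected value in total heart, 5.65 on the log2 scale.

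RNA for proteins that hold or flank claudins in the junction was, where detected, mostly level or somewhat higher. Of 32 tight junction partners on the array, 23 were detected, of which 4 were at least 2-fold higher in lacZ-positive cells, 1 was lower and 18 were within 2-fold. Their median log2 ratio was 0.31, or 0.14 with bounds, and 0.16 with no filter on dim probes. Ildr2, an angulin of the corners where 3 cells meet, read 2882 in lacZ-positive cells, against 563 in total heart, and was 4.06-fold higher. Lsr, another angulin, was 2.04-fold higher, and the junctional adhesion molecule genes F11r and Jam3 were 2.16-fold and at least 1.18-fold higher, where the measured size of Jam3, by which it was counted, was 2.12-fold. The scaffold gene Magi3 was 2.35-fold lower, and the polarity gene Pard3 stood at -0.43. Under other settings Ildr2 stayed past 2-fold in 9 of 9, F11r in 6 of 9, Lsr in 5 of 9, Jam3 in 4 of 8 and Magi3 in 5 of 9. Chosen after its value was seen, Tjp1, or ZO-1, the scaffold to which most claudins bind, stood at 0.61. Ocln, or occludin, was detected in neither sample and was likewise named after its values were seen.

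Regulators of epithelial and endothelial genes, several of which act on claudin genes, were detected for 16 of 25. Of these, 2 were at least 2-fold lower in lacZ-positive cells, 2 were higher and 12 were within 2-fold. Over all detected genes the shares were 6.44% lower and 3.82% higher. The median log2 ratio of the regulators was 0.19, or -0.01 with no filter on dim probes. Esrp1, a splicing regulator of epithelial cells, was at least 4.90-fold lower, and Grhl1, a grainyhead-like factor of epithelia, was 2.91-fold lower, with 94.7 in lacZ-positive cells against 166 in total heart. Twist1, a factor of mesenchyme, was 2.21-fold higher, and Klf4, a factor of barrier epithelia, 2.06-fold higher in the main processing and past 2-fold in 5 of 9 others. The repressor genes whose proteins can bind CAGGTG, named after their values were seen, were within 2-fold in the main processing. Their log2 ratios were 0.93 for Snai1, 0.76 for Snai2, 0.45 for Zeb2 and 0.21 for Zeb1. With no normalization between arrays, where the median of all genes was 0.42, Snai1 (1.30) and Snai2 (1.18) were past 2-fold. Grhl2 was not detected in either sample and was also named after its values were seen.

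**Figure D4:**
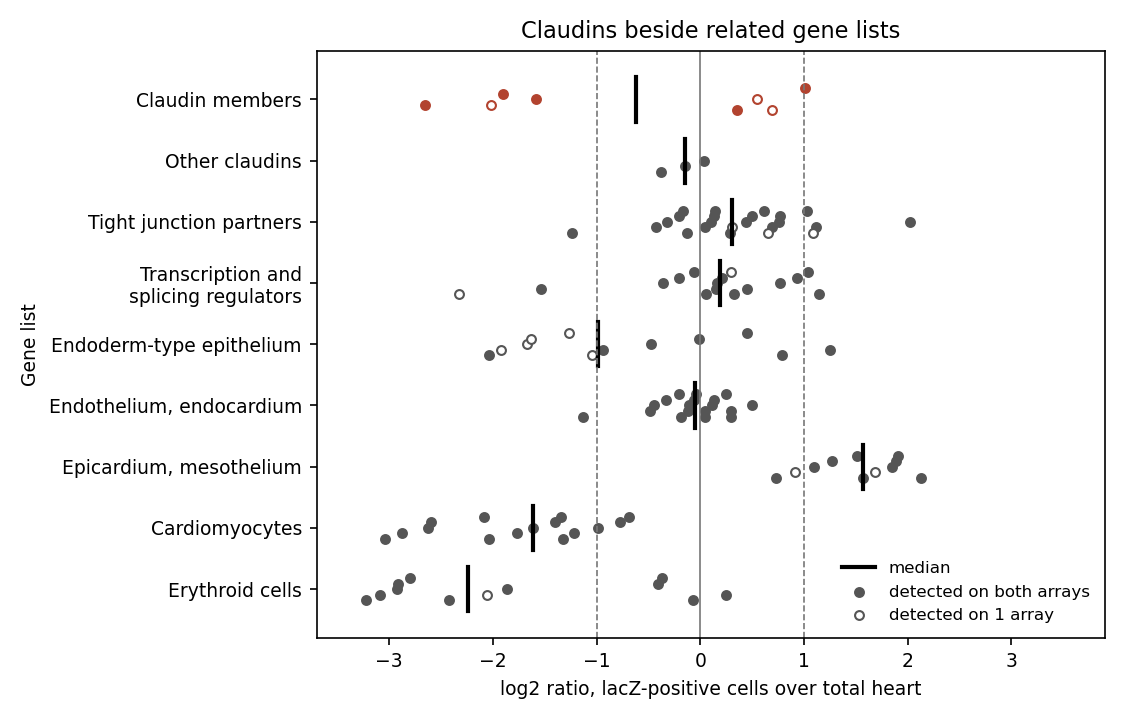
The log2 ratio of lacZ-positive cells over total heart (x axis) for each detected gene of the claudin members (red) and of 8 other gene lists (grey), with open points for genes detected on 1 array, black bars at the medians and dashed lines at 2-fold. The detected claudin members lie in 2 clumps on either side of 0, with the 3 other detected claudins between the clumps. The endothelial markers lie close to 0 and the endoderm-type markers spread from -2.04 to 1.25.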

How the data were processed

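Values came from a table of 2 Illumina arrays, 1 of lacZ-positive cells and 1 of total heart cells at E11.5. Per the file headers, the authors deposited for each probe the mean bead intensity, its standard error over beads, the number of beads and a detection p-value. Checked on the values, the intensity was linear and neither background-subtracted nor scaled between arrays. A further table of intensity values processed by the authors, by a method that the labels do not state, served as an alternative. Per the submitters' processing notes the arrays were read with GenomeStudio. The genome build was not stated in the labels or headers.

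Intensities were background-corrected by the nec function (normexp) of limma 3.58.1 in R 4.3.3, which uses the detection p-values, with an offset of 16, then quantile normalization and log2 followed. Bead standard errors were carried through the same map. Probes took their gene from the platform annotation, in which 34885 of 45281 probes have 1 symbol, and a gene was read by its detected probe of highest mean log2 signal. Detection was a p-value under 0.01, and a gene detected on 1 array has a bound against the lowest detected value of the other array. With 1 array per group there is no test, and called means past 2-fold. Promoter windows came from RefSeq (GRCm38.p6). The steps were run on simulated data with known folds, made from the total heart array with bead noise as the only error. Detection there was ranked among dim probes in place of the control probes. The run therefore does not measure accuracy near background, and its outcome is not given here. The arrays' number limits the precision. Probe sequences were not used here, so cross-hybridisation between similar claudins was not checked.

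The members, gene lists and motifs were chosen with earlier results of these data known. Named were all member probes, the genes of each list past 2-fold or with its 2 highest and 2 lowest ratios (at most 4 to a marker list), and annotated neighbours, and any other gene is said to be named after its values were seen. Alternatives were no or median-only normalization, no background correction, an offset of 50, detection at 0.05, no filter, detection on both arrays, the median of a gene's probes and the authors' processed values. The settings of detection, filter and probe median can drop a gene with 1 probe but cannot change its ratio. Counts over settings therefore include unchanged copies of the main value.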

Additional observations from a re-analysis of the deposited data

How the results depend on the processing

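The count of 4 lower claudins became 3 when detection on both arrays was required, since Cldn4 then drops out, and was 4 under the other 8 settings by measured values, of which that of Cldn4 lies below detection in lacZ-positive cells. The count of 1 higher claudin was 0 with a median shift, with no background correction, with an offset of 50 and with the authors' processed values, and 2 with the median of the detected probes, where Cldn15 joins Cldn1. The claudin median of -0.62 became -0.25 with no normalization between arrays and -1.59 when detection on both arrays was required, which leaves 5 genes. All genes at least 2-fold higher, 371 in number, became 1020 with no normalization, 225 with no background correction, 223 with an offset of 50 and 189 with the authors' values. Those at least 2-fold lower, 626 in number, became 381 with no normalization and 361 with the authors' values. All results with the authors' values had an offset of 16 added before log2, which lowers such counts. Of 69 claudin gene ratios under these settings, 51 moved by less than 2 bead standard errors, 18 by more, and 0 of those past 2-fold changed sign. The 51 include every ratio of a gene with 1 probe under the detection, filter and probe-median settings, which cannot change it. The count of 6 lower markers of endoderm-type epithelium fell to 1 with the authors' values and with detection on both arrays, and to 2 with an offset of 50. The cause was not tested where none is given. Most claudin values lie near background, where offset and background correction set much of a ratio's size, and 1 array per group gives no error between samples. No paired analysis was possible because each group has 1 array and no value comes from a test.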
